A study of Mus musculus with 10 samples.

Results

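Macrophages carrying a Tlr4 knockout label were compared after pre-treatment in medium with Poly(I:C) and after 6 h in the control medium. The comparison rests on 4 of the 10 libraries of the series, chosen by their titles: KO_PolyIC 1 and 2, and KO_control 1 and 2. All were made from bone marrow derived macrophages (BMDM), primary macrophages grown from marrow cells, of C57BL/6 mice labelled Tlr4-/-, and were sequenced as stranded mRNA libraries. The KO Poly(I:C) group (n = 2) received Poly(I:C), a synthetic form of double-stranded RNA, in its pre-treatment medium. The KO control group (n = 2) spent 6 h in a medium of 5% fetal bovine serum (FBS) and 2% bovine serum albumin (BSA) before collection. The labels give neither duration nor dose for Poly(I:C), nor whether serum and albumin were the same in that medium. A difference between the groups can therefore not be told apart from a difference in medium or time. The other 6 libraries, 2 each of untreated KO, WT control and untreated WT cells, enter the fit for the estimate of spread, and the WT libraries also a later comparison of responses. A WT group with Poly(I:C) was not analysed here. The labels do not tell whether libraries of a group are from separate mice or cultures, so a p-value reflects only the spread between libraries, which may be technical.

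Double-stranded RNA is a mark of viral infection that macrophages detect in 2 places. In endosomes it binds the Toll-like receptor TLR3, which signals through the adaptor TRIF (encoded by Ticam1), and in the cytosol it binds the helicases RIG-I (Ddx58) and MDA5 (Ifih1), which signal through MAVS. Both routes activate the kinases TBK1 and IKK epsilon, the transcription factors IRF3 and IRF7, and NF-kB, and lead to secretion of interferon beta and inflammatory cytokines. Interferon beta then acts on its receptor and, through STAT2, IRF9 and their partners, on many interferon-stimulated genes. TLR4, the receptor for bacterial lipopolysaccharide, is not a receptor for double-stranded RNA, although it also uses TRIF.

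The deposited table holds scaled whole numbers per gene, with totals of 47.5 and 51.7 M units in KO Poly(I:C) and 25.7 and 26.7 M in KO control. From the grid on which the low values lie, 42.2 and 27.2 M reads in KO Poly(I:C) and 31.2 and 18.3 M reads in KO control were recovered. Values are given as CPM, the deposited value per 1 M units after scaling each library by its trimmed mean of M values (TMM). Calls rest on limma at an adjusted p (Benjamini-Hochberg) under 0.05, and log2 differences are Poly(I:C) minus control on the log2(CPM + 0.1) scale. Of the macrophage markers, Lyz2 (lysozyme) was at 15413 and 16159 CPM with Poly(I:C) and 16577 and 16678 CPM in control medium, and Adgre1 (F4/80) at 3901 and 4361 CPM in KO Poly(I:C) and 3874 and 4078 CPM in KO control. Neither passed the test (log2 −0.08 and 0.05), but both were called lower with scaling by library totals alone (log2 −0.79 and −0.66). Tlr4 itself was read in all 4 libraries, at 47.9 and 63.4 CPM in KO Poly(I:C), against 30.8 and 34.6 CPM in KO control. It passed the test at a log2 difference of 0.75 (limma adjusted p = 0.000826), but stood at 0.04 (adjusted p = 0.786) with scaling by library totals alone. Genotypes are given as labelled, since a single value per gene leaves unknown whether the targeted part of the transcript was read.

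Poly(I:C) medium went with a broad change of the macrophage transcriptome. Of 13171 genes tested, 4279 rose (32.5%), 4860 fell (36.9%) and 4032 did not pass, so that 69.4% of all genes were called. Steep rises outnumbered steep falls: 467 genes rose by more than 3 on the log2 scale, while 101 fell by more than 3. Beyond 5 on that scale the counts were 111 up and 3 down. The split depends on scaling. With library totals alone, 2081 genes rose and 8882 fell, and the median log2 difference of all genes was −0.76, against −0.06 with TMM. With the deposited scaling, 5204 rose and 3759 fell (median 0.13). A total of 2081 genes rose and 3759 fell under each of the 3 scalings. These are the rises with totals alone and the falls with the deposited scaling, so the shared counts add no further check. In the authors' rlog table, on the log2 scale, 4683 genes rose (35.6%) and 4417 fell (33.5%), together 69.1%. Of the genes called, 8694 had the same direction in both tables. Those are 95.1% of the calls made on CPM and 95.5% of those made on rlog values, and 0 genes were called in opposite directions. The rlog values come from the same libraries and are no separate replication.

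**Figure D1:**
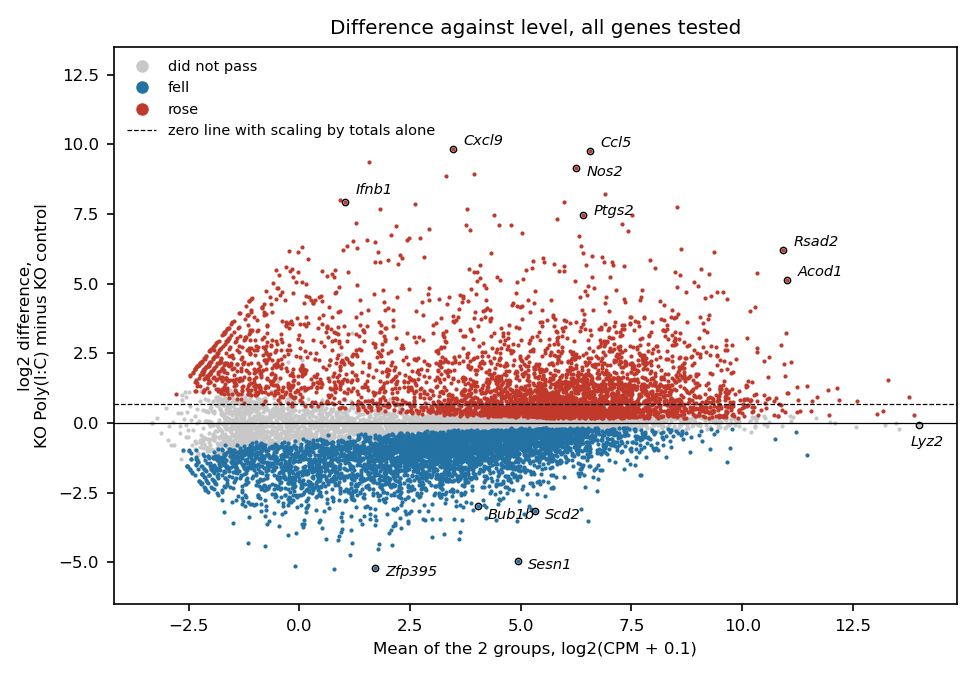
Each point is 1 of the 13171 genes tested, with the mean log2(CPM + 0.1) of KO Poly(I:C) and KO control on the x axis and the log2 difference, Poly(I:C) minus control, on the y axis. Red points rose, blue points fell and grey points did not pass limma at an adjusted p under 0.05. The dashed line marks where the zero line would lie with scaling by library totals alone, and rises reach further from zero than falls.

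The 15 protein-coding genes that rose most, among those with a mean of at least 5 CPM in the higher group, were Cxcl9, Ccl5, Nos2, Il6, Il12b, Ifi205, Lipg, Ccl12, Ifnb1, Csf3, Cxcl10, Tgtp1, Il27, Ptgs2 and Upp1. Their log2 differences ranged from 7.46 to 9.83. Most encode secreted signals: the chemokines Cxcl9, Cxcl10, Ccl5 and Ccl12, the cytokines Il6, Il12b, Il27 and Csf3, and interferon beta. The others are enzymes (Nos2, Ptgs2, the endothelial lipase Lipg and the uridine phosphorylase Upp1), the interferon-inducible GTPase Tgtp1 and Ifi205 of the family of AIM2-like DNA sensors. Upp1 was at 263 and 286 CPM with Poly(I:C) and 1.82 and 1.17 CPM in control medium, and Lipg at 34.4 and 26.0 CPM in KO Poly(I:C) and 0.0330 and 0 CPM in KO control. Control levels were near 0 for several of these genes, so the size of their log2 differences depends on the pseudocount: with a pseudocount of 1 the value was 4.93 in place of 8.02 for Lipg and 8.03 in place of 9.83 for Cxcl9.

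The receptors for double-stranded RNA rose, and the adaptor of the cytosolic route fell. Tlr3 (ENSMUSG00000031639, chromosome 8, 45395665 to 45411080, GRCm38) was at 166 and 195 CPM in KO Poly(I:C), against 10.5 and 11.03 CPM in KO control (log2 4.05, SE 0.11, limma adjusted p = 1.82e-09). Both Poly(I:C) libraries lay far above both control libraries, a separation that was not counted over all genes tested. MDA5, encoded by Ifih1, was at 1214 and 1415 CPM with Poly(I:C) and 61.8 and 76.4 CPM in control medium (log2 4.25), and RIG-I, encoded by Ddx58, at 984 and 1062 CPM in KO Poly(I:C) and 88.3 and 109 CPM in KO control (log2 3.38). Dhx58, which encodes LGP2, the third helicase of that family, rose by a log2 difference of 3.16. Mavs, the mitochondrial adaptor of the helicases, was at 21.9 and 20.4 CPM in KO Poly(I:C), against 42.7 and 42.9 CPM in KO control, and fell (log2 −1.01, limma adjusted p = 9.59e-07). So did Prkra, the protein activator of the kinase PKR (log2 −1.11), whereas PKR itself, Eif2ak2, rose by 2.45. Downstream of the sensors, the TRIF gene Ticam1 rose by a log2 difference of 1.02, the kinases Tbk1 and Ikbke by 1.40 and 1.68, and the TRAF-binding scaffold Tank by 2.62. Irf3, the transcription factor that these kinases phosphorylate, was at 34.4 and 25.9 CPM with Poly(I:C) and 35.4 and 28.6 CPM in control medium, and did not pass (log2 −0.09, limma adjusted p = 0.653), but was called lower with scaling by totals (log2 −0.80, adjusted p = 0.00146). Wdfy1, an adaptor between TLR3 and TRIF, was at 37.1 and 35.3 CPM in KO Poly(I:C) and 10.5 and 10.8 CPM in KO control (log2 1.76). In all, 15 of 20 tested genes of double-stranded RNA sensing rose, 2 fell and 3 did not pass, where 32.5% of all genes rose and 36.9% fell. Their median log2 difference was 1.72, against −0.06 over all genes tested, and the medians of the lists that follow are to be read against that same value.

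Among 19 other Toll-like receptors, co-receptors and adaptors, 12 rose and 5 fell (median log2 0.75), a majority that was lost with library totals alone, at 7 up against 8 down. The steepest were the adaptor Myd88 (log2 2.25), the endosomal single-stranded RNA receptor Tlr7 (log2 2.07) and the kinase Irak2 (log2 1.77), and these 3 rose under each scaling. Tlr13, which detects bacterial ribosomal RNA in mice, was at 149 and 154 CPM in KO Poly(I:C), against 234 and 268 CPM in KO control, and fell (log2 −0.72). Cd14, the co-receptor that hands lipopolysaccharide to TLR4, rose by a log2 difference of 1.65.

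**Figure D2:**
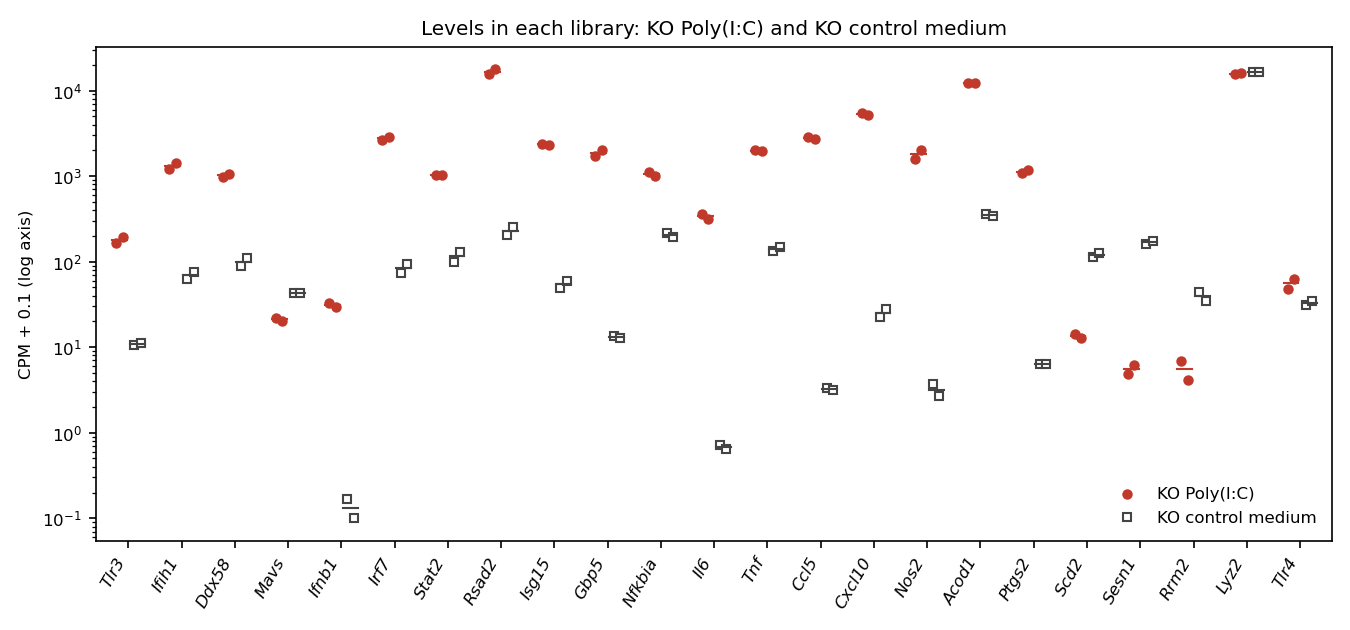
CPM + 0.1 on a log axis for 23 genes in each library, with KO Poly(I:C) as filled circles on the left and KO control as open squares on the right of each gene. Short lines are means of 2 libraries. Mavs, Scd2, Sesn1 and Rrm2 lie below their control, and Lyz2 is nearly level with the TMM scaling shown.

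Interferon beta was read in both libraries after Poly(I:C) and near 0 in control medium. Ifnb1 (ENSMUSG00000048806, chromosome 4, 88522025 to 88522774, GRCm38) was at 33.2 and 29.3 CPM with Poly(I:C) and 0.0660 and 0 CPM in control medium, and at 0 and 0 CPM in untreated KO cells. Its log2 difference was 7.92 (SE 0.39, limma adjusted p = 5.46e-08), a value that rests on the pseudocount and stood at 4.96 with a pseudocount of 1. Ifna4, an interferon alpha gene, had deposited values of 3 and 0 units in KO Poly(I:C) and 0 and 0 in KO control and was not tested. Among the receptor chains Ifnar1 rose by a log2 difference of 0.78 and Ifnar2 by 0.99, and the kinases Jak1 and Tyk2 by 0.84 and 1.60, of which Ifnar1 and Jak1 did not pass with scaling by totals (0.07 and 0.12). Of the transcription factors that carry the signal, Stat2 was at 1023 and 1023 CPM in KO Poly(I:C) and 100.1 and 129.7 CPM in KO control (log2 3.17) and Irf9 at 136 and 141 CPM in KO Poly(I:C), against 56.6 and 66.9 CPM in KO control (log2 1.17). Irf7, which amplifies interferon production, was at 2674 and 2844 CPM with Poly(I:C) and 74.1 and 92.9 CPM in control medium (log2 5.05, SE 0.20, limma adjusted p = 1.36e-08). Inhibitors of the pathway were among the steepest: Socs1 rose by a log2 difference of 4.82, Socs3 by 4.51 and Usp18, which removes ISG15 from proteins and blocks the receptor, by 4.78. All 15 tested genes of this list rose (median 2.79), against 12 up and 1 down with library totals alone, where Ptpn6, a phosphatase, stood at −0.48 in place of 0.24. Its call was also lost when KO control replicate 1, KO control replicate 2 or KO Poly(I:C) replicate 2 was left out, at 0.25, 0.23 and 0.21.

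The promoters of 6 genes that rose are shown because double-stranded RNA signalling and interferon are known to act on them through DNA elements, and the genes moved together here. Each sequence is the 220 bases before the RefSeq start of the gene in GRCm38.p6, 5′ to 3′ on the gene's strand. Capitals mark matches, on either strand and with any overlap, to GAAANNGAA, a core of the interferon-stimulated response element, or to GGGNNNTTC, the first bases of a common form of the NF-kB site.
Ifnb1, chr4:88522795-88523014 (- strand): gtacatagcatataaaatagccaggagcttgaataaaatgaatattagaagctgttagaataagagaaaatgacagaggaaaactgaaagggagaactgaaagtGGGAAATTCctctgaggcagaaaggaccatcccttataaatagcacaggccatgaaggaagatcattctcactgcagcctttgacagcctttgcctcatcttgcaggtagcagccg
Cxcl10, chr5:92348890-92349109 (- strand): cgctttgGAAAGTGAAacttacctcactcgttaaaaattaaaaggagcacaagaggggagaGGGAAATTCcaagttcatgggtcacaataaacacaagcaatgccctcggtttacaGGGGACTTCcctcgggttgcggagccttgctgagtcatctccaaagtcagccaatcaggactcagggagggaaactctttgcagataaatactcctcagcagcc
Isg15, chr4:156200819-156201038 (- strand): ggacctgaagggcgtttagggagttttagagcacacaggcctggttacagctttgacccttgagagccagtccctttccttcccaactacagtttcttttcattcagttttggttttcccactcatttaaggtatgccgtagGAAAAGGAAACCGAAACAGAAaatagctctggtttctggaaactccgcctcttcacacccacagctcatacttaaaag
Ifit1, chr19:34640669-34640888 (+ strand): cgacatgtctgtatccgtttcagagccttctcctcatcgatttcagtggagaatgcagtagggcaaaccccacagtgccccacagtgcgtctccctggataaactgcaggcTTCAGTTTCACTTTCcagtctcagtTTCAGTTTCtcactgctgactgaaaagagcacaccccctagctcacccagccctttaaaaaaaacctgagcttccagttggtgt
Rsad2, chr12:26456453-26456672 (- strand): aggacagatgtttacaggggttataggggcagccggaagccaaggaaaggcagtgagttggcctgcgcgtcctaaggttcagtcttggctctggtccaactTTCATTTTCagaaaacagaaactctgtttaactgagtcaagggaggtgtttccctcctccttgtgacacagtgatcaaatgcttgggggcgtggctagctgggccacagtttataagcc
Il6, chr5:30012894-30013113 (+ strand): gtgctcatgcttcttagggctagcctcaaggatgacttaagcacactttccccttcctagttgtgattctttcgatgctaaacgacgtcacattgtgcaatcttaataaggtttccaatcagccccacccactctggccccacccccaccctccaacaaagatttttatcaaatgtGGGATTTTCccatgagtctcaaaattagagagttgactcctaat
Ifnb1 holds 1 match to the NF-kB form, from base 116 to base 108 before its start, and Il6 holds 1 from base 44 to 36. Elements with other letters or spacing are not marked, so lower case does not mean that a promoter lacks them. Isg15 holds 3 matches to the response element core that overlap one another, between bases 78 and 58, and Ifit1 holds 3 on the opposite strand, between bases 109 and 76. Rsad2 holds 1 on the opposite strand, from base 119 to 111. Cxcl10 holds both kinds, with the response element core from base 213 and the NF-kB form from bases 159 and 104. Over all 27025 genes with a window of 300 bases (250 before and 50 after the start), 9.76% hold the response element core and 15.8% the NF-kB form. Of the 57 antiviral and GTPase genes that rose, 42 had a window, and 30 of these (71.4%) held the core. The NF-kB form was held by 12 of the same 42. Among the 14 genes with a window that rose on the list of brakes on inflammation, 7 held the NF-kB form and 3 the core. Of 11 chemokine genes that rose the counts were 6 and 3, and of 15 cytokine genes 5 and 2. Of 22 cell cycle genes that fell, 4 held the NF-kB form and 1 the core. A match describes letters in a window and not a bound site, and 1 gene can have several windows.

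Antiviral effectors rose almost without exception. Rsad2, which encodes the antiviral enzyme viperin (ENSMUSG00000020641, chromosome 12, 26442746 to 26456452, GRCm38), was at 15598 and 17646 CPM in KO Poly(I:C) and 203 and 251 CPM in KO control, with a log2 difference of 6.20 (SE 0.21, limma adjusted p = 4.82e-09). Cmpk2, its neighbour and a nucleotide kinase, was at 5468 and 5546 CPM in KO Poly(I:C), against 74.4 and 83.2 CPM in KO control (log2 6.13). The ubiquitin-like modifier Isg15 was at 2370.4 and 2334 CPM with Poly(I:C) and 49.5 and 59.2 CPM in control medium (log2 5.44). No library of one group reached the range of the other for any of these 3. How many of all genes tested were separated in this way was not counted. Oasl1, a member of the 2′-5′-oligoadenylate synthetase family, rose most on the list: it was at 2370.0 and 2465 CPM in KO Poly(I:C) and 11.7 and 15.8 CPM in KO control (log2 7.46). Its relatives Oas1a, Oas2 and Oas3, which make short RNA messengers when they bind double-stranded RNA, rose by a log2 difference of 3.14, 2.75 and 3.06. The IFIT proteins bind foreign RNA ends: Ifit1 rose by a log2 difference of 5.34, Ifit2 by 5.40, Ifit3 by 4.70 and Ifit1bl1 by 6.72. Zbp1, a sensor of Z-form nucleic acid, rose by a log2 difference of 4.46, and Adar, whose product edits double-stranded RNA, by 2.17. Of 42 tested members, 41 rose, 0 fell and 1 did not pass (median 3.38), and with library totals alone 40 rose and 1 fell. Together they took 4.95% and 5.39% of all units in KO Poly(I:C), against 0.456% and 0.552% in KO control. Ifit3 and Ifit3b, and genes of the Oas1 cluster, have near-identical copies between which reads can be split, so their single values are uncertain.

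Interferon-inducible GTPases attack the vacuoles of intracellular pathogens, and all 16 tested members rose (median 5.23), as they did under each scaling. Gbp5, a guanylate-binding protein that promotes inflammasome assembly, was at 1716 and 2031 CPM in KO Poly(I:C), against 13.3 and 12.7 CPM in KO control (log2 7.15). Gbp4 was at 291 and 358 CPM with Poly(I:C) and 2.11 and 2.37 CPM in control medium (log2 7.11), and Gbp2 at 3251 and 3670.4 CPM in KO Poly(I:C) and 45.0 and 45.4 CPM in KO control (log2 6.25). Among the immunity-related GTPases, Iigp1 was at 652 and 754 CPM in KO Poly(I:C), against 9.08 and 10.997 CPM in KO control (log2 6.12) and Irgm1 at 1205 and 1306 CPM with Poly(I:C) and 77.9 and 101 CPM in control medium (log2 3.82). Tgtp1 rose by a log2 difference of 7.70 and its close copy Tgtp2 by 5.99, and reads of the pair can be assigned to either. Gbp2b was listed at 0 in both control libraries and at 1.97 and 2.03 CPM in KO Poly(I:C).

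Genes of NF-kB subunits and of its inhibitors rose as well. The precursors Nfkb1 and Nfkb2 rose by a log2 difference of 1.84 and 2.07, Relb by 1.48, Rel by 1.44 and Rela by 1.29. The kinase genes Ikbkb and Chuk rose by 0.41 and 0.42 and stood at −0.31 and −0.30 with scaling by totals, and Map3k7, which encodes TAK1, fell by 0.28 on the log2 scale, a call lost without KO control replicate 2 (log2 −0.25) and with the deposited scaling (log2 −0.08). Of 10 subunits and kinases 8 rose and 1 fell (median 0.96), against 5 and 4 with library totals alone. All 16 brakes on inflammation rose (median 2.63), 15 of them also with scaling by totals. Nfkbia, which encodes the inhibitor IkB alpha, was at 1105 and 1001 CPM in KO Poly(I:C) and 214 and 193 CPM in KO control (log2 2.37), and Nfkbie rose by 3.71. Tnfaip3, the ubiquitin-editing enzyme A20, was at 1266 and 1339 CPM in KO Poly(I:C), against 88.1 and 103 CPM in KO control (log2 3.77). Il1rn, the antagonist of the interleukin 1 receptor, was at 3824 and 3495 CPM with Poly(I:C) and 75.7 and 84.1 CPM in control medium (log2 5.52), and Il10 at 155 and 153 CPM in KO Poly(I:C) and 21.5 and 21.4 CPM in KO control (log2 2.84).

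Cytokine genes rose in 20 of 22 tested cases, with 0 falling (median 3.81). Il6 was at 365 and 315 CPM in KO Poly(I:C), against 0.627 and 0.551 CPM in KO control (log2 8.94, SE 0.23, limma adjusted p = 1.18e-09). Il12b, the p40 subunit shared by IL-12 and IL-23, was at 221 and 205 CPM with Poly(I:C) and 0.396 and 0.324 CPM in control medium (log2 8.86). Of its partners, Il12a was at 0.705 and 0.412 CPM in KO Poly(I:C) and 0.363 and 0.292 CPM in KO control, and did not pass (limma adjusted p = 0.188), and Il23a had at most 2 units in any of these libraries. Il27, the p28 subunit of IL-27, was at 196 and 191 CPM in KO Poly(I:C), against 1.09 and 0.649 CPM in KO control (log2 7.68), and its partner Ebi3 at 272 and 238 CPM with Poly(I:C) and 127 and 110.2 CPM in control medium (log2 1.11). Tnf was at 1992 and 1967 CPM in KO Poly(I:C) and 133 and 149.7 CPM in KO control (log2 3.81), and the interleukin 1 genes Il1a and Il1b rose by 6.98 and 4.34. Csf3, the granulocyte colony-stimulating factor, was at 103 and 81.6 CPM in KO Poly(I:C), against 0.198 and 0.422 CPM in KO control (log2 7.87), and Csf2 was at 0.294 and 0.165 CPM in KO Poly(I:C) and 0.0330 and 0 CPM in KO control (log2 1.49). The call of Csf2 was lost without KO control replicate 2 (log2 1.26), without KO Poly(I:C) replicate 1 (log2 1.23) and with a pseudocount of 1 (log2 0.27). Il15, which sustains natural killer cells, rose by a log2 difference of 4.18, and the death ligand Tnfsf10 (TRAIL) by 5.16. Tgfb1 was at 161 and 137 CPM with Poly(I:C) and 133 and 114 CPM in control medium, and did not pass (log2 0.27), but was called lower with scaling by totals (log2 −0.44) and higher with the deposited scaling (log2 0.47).

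Chemokine genes rose in 17 of 21 cases and fell in 0 (median log2 4.29), led by attractants of T cells and monocytes. Ccl5 (ENSMUSG00000035042, chromosome 11, 83525778 to 83530518, GRCm38) was at 2869 and 2715 CPM in KO Poly(I:C) and 3.24 and 3.02 CPM in KO control (log2 9.76, SE 0.23, limma adjusted p = 7.64e-10). Of the CXCR3 ligands, Cxcl10 was at 5502 and 5233 CPM in KO Poly(I:C), against 22.4 and 27.9 CPM in KO control (log2 7.74) and Cxcl9 at 269.6 and 400.0 CPM with Poly(I:C) and 0.297 and 0.227 CPM in control medium (log2 9.83). Cxcl11, annotated as a polymorphic pseudogene in the reference strain, was at 77.6 and 74.7 CPM in KO Poly(I:C) and 0.0330 and 0 CPM in KO control, and its log2 difference of 9.37 was 6.25 with a pseudocount of 1. The monocyte attractants Ccl2, Ccl7 and Ccl12 rose by a log2 difference of 5.56, 6.88 and 7.94, and Ccl3 and Ccl4 by 4.46 and 4.71. Among neutrophil attractants Cxcl2 was at 188 and 160.4 CPM in KO Poly(I:C), against 8.45 and 9.05 CPM in KO control (log2 4.29), Cxcl1 at 11.6 and 10.3 CPM with Poly(I:C) and 1.22 and 1.14 CPM in control medium (log2 3.11), and Cxcl5 at 0.382 and 0.302 CPM in KO Poly(I:C) and 0.297 and 0.389 CPM in KO control, which did not pass.

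Chemoattractant receptors moved both ways, with 10 of 14 up and 3 down (median log2 1.26; 8 and 3 with library totals alone). Ccrl2, an atypical receptor that binds chemerin, was at 326 and 362 CPM in KO Poly(I:C), against 5.65 and 6.55 CPM in KO control (log2 5.80). Ccr7, which guides cells to lymph nodes, was at 0.646 and 0.742 CPM with Poly(I:C) and 0.0660 and 0.0324 CPM in control medium, below 1 CPM throughout (log2 2.42). The fractalkine receptor Cx3cr1 was at 16.2 and 14.2 CPM in KO Poly(I:C) and 51.3 and 40.1 CPM in KO control, and fell (log2 −1.57), as did Cxcr4 (log2 −1.06) and Cxcr3 (log2 −2.54), the receptor for Cxcl9 and Cxcl10. Fpr2, a formyl peptide receptor, rose by a log2 difference of 2.10.

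Genes of MHC class I presentation rose, and those of class II in part. All 13 class I genes rose (median 2.30), 12 of them with library totals alone. Nlrc5, the transactivator of class I genes, was at 668 and 739.7 CPM in KO Poly(I:C), against 52.9 and 59.8 CPM in KO control (log2 3.64). The peptide transporter Tap1 rose by a log2 difference of 3.11, the immunoproteasome subunit Psmb10 by 3.27, and the heavy chain H2-K1 by 1.66. Ciita, the matching transactivator of class II, was at 0.176 and 0.577 CPM with Poly(I:C) and 0.198 and 0.130 CPM in control medium, and did not pass (log2 0.72), but passed without KO Poly(I:C) replicate 1 (log2 1.38). Of 8 class II genes 5 rose, among them the invariant chain Cd74 (log2 1.74, at 36.7 and 37.6 CPM in KO Poly(I:C) and 11.5 and 10.6 CPM in KO control), H2-Ab1 (log2 1.44) and H2-Aa (log2 1.29), against 2 up and 2 down with scaling by totals (median 0.85 with TMM). Co-stimulatory molecules rose in 9 of 10 cases and fell in 1 (median log2 2.16). Cd40 was at 609 and 659 CPM in KO Poly(I:C), against 12.5 and 12.2 CPM in KO control (log2 5.66), the checkpoint ligand Cd274 (PD-L1) at 2460.1 and 2937 CPM with Poly(I:C) and 115 and 124 CPM in control medium (log2 4.49), and Cd86 rose by 3.16. Havcr2, the checkpoint receptor TIM-3, was at 3.61 and 4.01 CPM in KO Poly(I:C) and 15.4 and 13.6 CPM in KO control, and fell (log2 −1.90).

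Genes of inflammasomes and cell death rose in 18 of 20 cases, with 1 falling (median log2 1.83; 14 and 2 with library totals alone). The inflammasome sensor Nlrp3 was at 646 and 696 CPM in KO Poly(I:C), against 46.3 and 49.2 CPM in KO control (log2 3.81). Mlkl, the executioner of necroptosis, was at 242 and 235 CPM with Poly(I:C) and 20.5 and 19.4 CPM in control medium (log2 3.57), while its activating kinase Ripk3 was at 34.9 and 33.8 CPM in KO Poly(I:C) and 22.5 and 23.7 CPM in KO control (log2 0.57, and −0.14 with scaling by totals). Casp4, which encodes the cytosolic lipopolysaccharide sensor caspase 11, rose by a log2 difference of 3.10, Casp1 by 2.27 and the pore protein Gsdmd by 1.81. Cflar, the inhibitor of caspase 8, rose by a log2 difference of 3.04. Bcl2l11, which encodes the death-promoting protein BIM, fell by 0.48 on the log2 scale, a call lost without KO control replicate 2 (log2 −0.40), without KO Poly(I:C) replicate 1 (log2 −0.39) and with the deposited scaling (log2 −0.27).

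**Figure D3:**
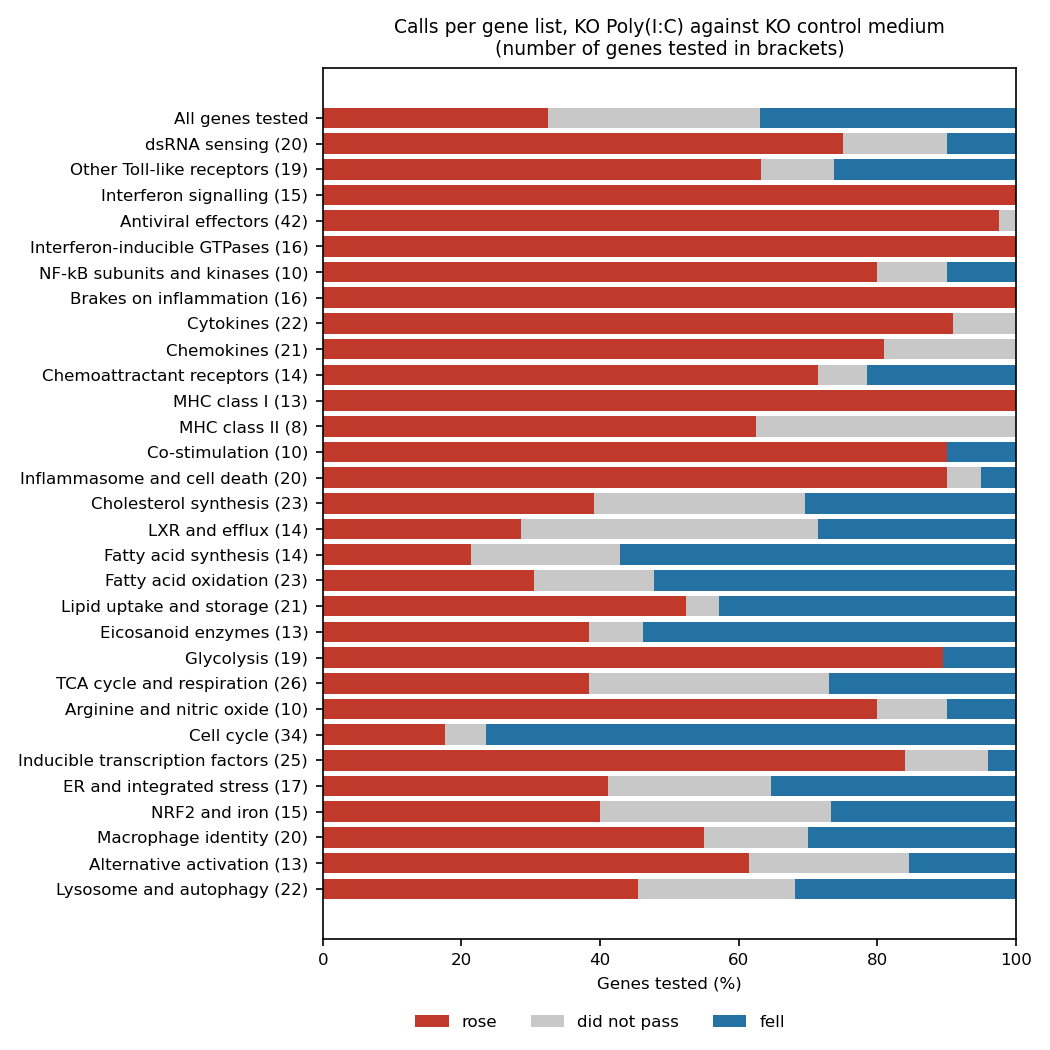
Share of the genes tested on each of 30 lists that rose (red), did not pass (grey) or fell (blue) in KO Poly(I:C) against KO control, with all genes tested on top (32.5% up and 36.9% down). Immune lists are mostly red, the cell cycle list mostly blue, and the lipid and energy lists mixed.

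Lipid metabolism, named in the title of the series, moved in both directions within most of its lists. Of 23 tested genes of cholesterol synthesis and its control, 9 rose, 7 fell and 7 did not pass (median log2 0.07; 4 up and 15 down with library totals alone). Those that rose include Hmgcs1, an enzyme of an early step, at 140.2 and 146 CPM in KO Poly(I:C), against 69.8 and 69.5 CPM in KO control (log2 1.04), and Insig1, which holds the SREBP complex in the endoplasmic reticulum, at 70.5 and 64.1 CPM with Poly(I:C) and 33.5 and 31.0 CPM in control medium (log2 1.06). Those that fell include Dhcr7, an enzyme of the last steps, at 4.70 and 4.01 CPM in KO Poly(I:C) and 16.0 and 15.9 CPM in KO control (log2 −1.85), and Scap, the escort protein of SREBP, at 19.4 and 20.5 CPM in KO Poly(I:C), against 35.4 and 34.8 CPM in KO control (log2 −0.81).

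Cholesterol efflux and the oxysterol receptor LXR were split, with 4 of 14 genes up, 4 down and 6 not passing (median log2 0.12; 3 and 9 with library totals alone). Ch25h, the interferon-induced enzyme that makes 25-hydroxycholesterol, was at 175 and 157 CPM with Poly(I:C) and 2.74 and 1.98 CPM in control medium (log2 6.09, SE 0.48, limma adjusted p = 1.62e-06). The efflux pump Abca1 was at 89.0 and 131 CPM in KO Poly(I:C) and 350.3 and 449 CPM in KO control, and fell (log2 −1.88), and Scd2, a desaturase, at 14.1 and 12.6 CPM in KO Poly(I:C), against 112 and 125 CPM in KO control (log2 −3.14). Abcg1, the other pump, was at 143 and 196 CPM with Poly(I:C) and 138 and 155 CPM in control medium, and did not pass (log2 0.19, limma adjusted p = 0.544). Nr1h3, which encodes LXR alpha, rose by a log2 difference of 1.46.

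Fatty acid synthesis genes fell more often than they rose, at 8 against 3 of 14 (median log2 −0.70; 11 and 1 with scaling by totals). Fasn, the fatty acid synthase, was at 29.3 and 25.6 CPM in KO Poly(I:C) and 61.0 and 54.3 CPM in KO control (log2 −1.07), the desaturase Fads1 at 5.64 and 5.11 CPM in KO Poly(I:C), against 32.8 and 31.3 CPM in KO control (log2 −2.55), and the elongase Elovl7 fell by 2.11 on the log2 scale. Acsl1, the acyl-CoA synthetase, went the other way: it was at 429.6 and 463 CPM with Poly(I:C) and 52.3 and 50.8 CPM in control medium (log2 3.11), while Acsl3 was at 3.53 and 3.30 CPM in KO Poly(I:C) and 13.6 and 13.8 CPM in KO control (log2 −1.973). Of 23 fatty acid oxidation genes 7 rose and 12 fell (median log2 −0.20), which turned to 11 up and 10 down with the deposited scaling. The medium-chain dehydrogenase Acadm was at 11.9 and 11.1 CPM in KO Poly(I:C), against 44.5 and 42.9 CPM in KO control (log2 −1.92), and the thioesterases Acot1 and Acot2 fell by 2.19 and 2.51 on the log2 scale from low levels. Cpt1a, which lets fatty acids into mitochondria, was at 83.2 and 94.0 CPM with Poly(I:C) and 60.7 and 66.2 CPM in control medium, and its log2 difference of 0.48 turned to −0.24 with scaling by totals.

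Lipid uptake and storage genes were split at 11 up and 9 down of 21 (median log2 0.34; 8 and 11 with scaling by totals). Of genes that make or coat lipid droplets, some rose and some fell. Dgat2, which makes triglycerides, was at 17.6 and 15.4 CPM in KO Poly(I:C) and 0.991 and 0.519 CPM in KO control (log2 4.34), Hilpda, an inhibitor of droplet lipolysis, at 74.6 and 69.8 CPM in KO Poly(I:C), against 5.68 and 5.00 CPM in KO control (log2 3.73), and the droplet coat gene Plin2 at 804 and 765 CPM with Poly(I:C) and 239 and 259 CPM in control medium (log2 1.66), while the other triglyceride synthase gene Dgat1 fell by 0.39 on the log2 scale and the coat gene Plin3 by 0.89. The call of Dgat1 was lost without KO control replicate 2 (log2 −0.36) and with the deposited scaling (log2 −0.19). Among scavenger receptors, Olr1 rose by 3.51 and Msr1 by 1.90, while Cd36 was at 768 and 791 CPM in KO Poly(I:C) and 808 and 852 CPM in KO control, and did not pass (log2 −0.09), but was called lower with scaling by totals (log2 −0.81). Lpl, the lipoprotein lipase, was at 1887 and 1919.9 CPM in KO Poly(I:C), against 3965 and 4416 CPM in KO control, and fell (log2 −1.14). So did the lysosomal lipase Lipa (log2 −0.94), the lipoprotein receptor gene Lrp1 (log2 −1.40) and Pparg (log2 −1.29). Gpr84, a receptor for medium-chain fatty acids, rose by a log2 difference of 3.49.

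Of 13 eicosanoid genes 5 rose and 7 fell (median log2 −0.47; 3 up and 8 down with scaling by totals). Ptgs2, which encodes the inducible cyclooxygenase 2, was at 1083 and 1170.1 CPM with Poly(I:C) and 6.31 and 6.20 CPM in control medium (log2 7.47, SE 0.16, limma adjusted p = 3.85e-10). Ptges, the prostaglandin E synthase, was at 239.6 and 229 CPM in KO Poly(I:C) and 12.1 and 9.96 CPM in KO control (log2 4.41). Hpgd, which inactivates prostaglandins, was at 0.294 and 0.357 CPM in KO Poly(I:C), against 8.22 and 7.23 CPM in KO control (log2 −4.20). Of the leukotriene genes, Alox5 fell by 1.27 on the log2 scale, Lta4h by 0.62 and Alox5ap by 0.47, while Ltc4s did not pass (log2 −0.41; called lower with totals, log2 −1.06). Ptgs1, the constitutive cyclooxygenase, fell by 0.95 on the log2 scale, and the prostanoid synthase genes Hpgds and Tbxas1 by 0.55 and 0.65.

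Genes of energy metabolism moved in both directions. Acod1, which diverts a TCA cycle intermediate to itaconate, was at 12168 and 12314 CPM with Poly(I:C) and 356 and 346 CPM in control medium (log2 5.12, SE 0.08, limma adjusted p = 8.84e-11). Idh1, the cytosolic isocitrate dehydrogenase, was at 33.8 and 30.4 CPM in KO Poly(I:C) and 129 and 117 CPM in KO control, and fell (log2 −1.93), and its mitochondrial relative Idh2 fell by 0.66 on the log2 scale. Of 26 genes of the TCA cycle and respiratory chain 10 rose and 7 fell with a median of 0.08. Those that fell were Idh1, Idh2, Idh3a, Mdh1, Fh1, Pdha1 and Suclg1. Cox5a, Cox4i1, Ndufa9, Cyc1, Uqcrc1, Uqcrc2, Atp5b and Atp5a1, of the respiratory chain and ATP synthase, rose. Ndufs1, Ndufv1, Sdha, Sdhb and Sdhd did not pass. With scaling by totals 1 of the 26 rose and 25 fell. Glycolysis genes rose in 17 of 19 cases (median log2 0.86), which became 8 up and 8 down with scaling by totals. The 3 steepest rose under each scaling: Pfkfb3, which makes the activator of phosphofructokinase, was at 1044 and 1128 CPM in KO Poly(I:C), against 126 and 141 CPM in KO control (log2 3.02), the glucose transporter Slc2a1 at 577 and 606 CPM with Poly(I:C) and 122 and 118 CPM in control medium (log2 2.30), and the hexokinase Hk3 rose by 2.07.

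The nitric oxide synthase gene Nos2 rose, as did most genes listed with it for arginine metabolism. Nos2, the inducible nitric oxide synthase, was at 1591 and 2034 CPM in KO Poly(I:C) and 3.63 and 2.56 CPM in KO control (log2 9.16, SE 0.18, limma adjusted p = 2.81e-10). The arginine transporter Slc7a2 was at 151 and 167 CPM in KO Poly(I:C), against 1.16 and 1.27 CPM in KO control (log2 6.93), and Gch1, which makes the cofactor of the synthase, at 213 and 183 CPM with Poly(I:C) and 15.1 and 13.0 CPM in control medium (log2 3.81). Ass1, which acts in the regeneration of arginine from citrulline, rose by a log2 difference of 2.76, while Asl did not pass. Arg1, the competing arginase of alternative activation, was at 24.1 and 25.0 CPM in KO Poly(I:C) and 9.34 and 10.2 CPM in KO control (log2 1.33). Of 10 genes 8 rose (median log2 2.42) and 1 fell, the spermidine synthase gene Srm (log2 −0.92). Those that rose include Arg2 and the polyamine genes Odc1 and Sat1, so the count is not one of nitric oxide genes alone.

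Most proliferation genes fell. On the cell cycle list 6 of 34 genes rose and 26 fell, with 2 not passing (median −1.65), and 4 rose and 27 fell with scaling by totals. Rrm2, the ribonucleotide reductase subunit, was at 6.82 and 4.01 CPM in KO Poly(I:C), against 44.2 and 34.8 CPM in KO control (log2 −2.88), and the spindle checkpoint kinase Bub1b at 6.37 and 4.92 CPM with Poly(I:C) and 54.9 and 37.4 CPM in control medium (log2 −2.99). Replicate 1 lay above replicate 2 in both groups for 28 of the 34 genes, against 4445 of all 13171 genes tested. This spread runs across the groups, yet the groups did not overlap for Rrm2 or Bub1b. How many of all genes tested did not overlap was not counted. Ccnd2, which encodes cyclin D2, was at 190.0 and 227 CPM in KO Poly(I:C) and 7.36 and 7.92 CPM in KO control (log2 4.75), the replication licensing gene Cdt1 rose by 1.66, Ccnd1 by 1.26, and Cdkn1a, the inhibitor p21, by 1.23. Fewer dividing cells and less of these RNAs per cell cannot be told apart in bulk libraries.

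Inducible transcription factors rose in 21 of 25 cases and fell in 1 (median 2.15). Batf2, an AP-1 partner induced by interferon, was at 90.6 and 97.9 CPM in KO Poly(I:C), against 2.54 and 2.82 CPM in KO control (log2 5.08), Ier3 rose by 3.64 and the nuclear receptor gene Nr4a3 by 3.54. Egr1 was at 76.2 and 76.8 CPM with Poly(I:C) and 6.54 and 7.59 CPM in control medium (log2 3.42). Cebpb was at 49.4 and 25.3 CPM in KO Poly(I:C) and 11.3 and 5.48 CPM in KO control (log2 2.15). Replicate 1 lay well above replicate 2 in either group, but the groups did not overlap, which was not counted over all genes tested.

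Stress genes were mixed, at 7 up and 6 down of 17 (median log2 0.22; 2 and 11 with scaling by totals). Ppp1r15a, the phosphatase subunit GADD34 that restores translation after PKR or PERK have acted, was at 199.6 and 193 CPM in KO Poly(I:C), against 18.7 and 20.8 CPM in KO control (log2 3.31). The chaperone Hspa5 (BiP) rose by 1.52, and Herpud1, of the degradation machinery of the endoplasmic reticulum, fell by 1.44 on the log2 scale. Of 15 NRF2 and iron genes 6 rose and 4 fell (median log2 0.06; 2 and 10 with scaling by totals). The iron-sequestering Lcn2 was at 836 and 797 CPM with Poly(I:C) and 56.0 and 63.5 CPM in control medium (log2 3.77), and the cystine transporter Slc7a11 rose by 2.07. Slc40a1, the iron exporter ferroportin, was at 45.8 and 44.3 CPM in KO Poly(I:C) and 164 and 167 CPM in KO control, and fell (log2 −1.87).

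Macrophage identity genes stood at 11 up and 6 down of 20 (median log2 0.34), and 4 up against 11 down with scaling by totals. The Fc receptors for antibody rose under each scaling: Fcgr1 was at 1495 and 1559.8 CPM in KO Poly(I:C), against 114 and 131 CPM in KO control (log2 3.64), Fcgr4 at 930.2 and 964 CPM with Poly(I:C) and 86.4 and 98.7 CPM in control medium (log2 3.36), and the inhibitory Fcgr2b at 335 and 279 CPM in KO Poly(I:C) and 24.6 and 22.9 CPM in KO control (log2 3.68). The M-CSF receptor Csf1r was at 1338 and 1469 CPM in KO Poly(I:C), against 2045 and 2086 CPM in KO control, and fell (log2 −0.56), as did Trem2 (log2 −0.94), a lipid receptor of macrophages. Of 13 alternative activation genes 8 rose and 2 fell (median log2 1.49; 8 and 5 with scaling by totals, 8 and 0 with the deposited scaling). Those that fell were Mrc1 and Stat6, and Retnla was at 0 in both groups and not tested. Among those that rose were the transglutaminase Tgm2, at 454 and 521 CPM with Poly(I:C) and 90.8 and 105 CPM in control medium (log2 2.31), and the low lectin gene Mgl2 (log2 2.62). Ccl22 was listed at 0 in both control libraries and at 1.498 and 1.40 CPM in KO Poly(I:C). Lysosome and autophagy genes were split at 10 up and 7 down of 22 (median log2 0.05; 4 and 16 with scaling by totals). Tfeb, the regulator of lysosome genes, was at 7.14 and 6.27 CPM in KO Poly(I:C) and 23.7 and 18.0 CPM in KO control (log2 −1.61), and Ulk1, the kinase that starts autophagy, at 12.2 and 13.4 CPM in KO Poly(I:C), against 32.7 and 29.1 CPM in KO control (log2 −1.26), both falling, while Lamp2 rose by 1.15.

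**Figure D4:**
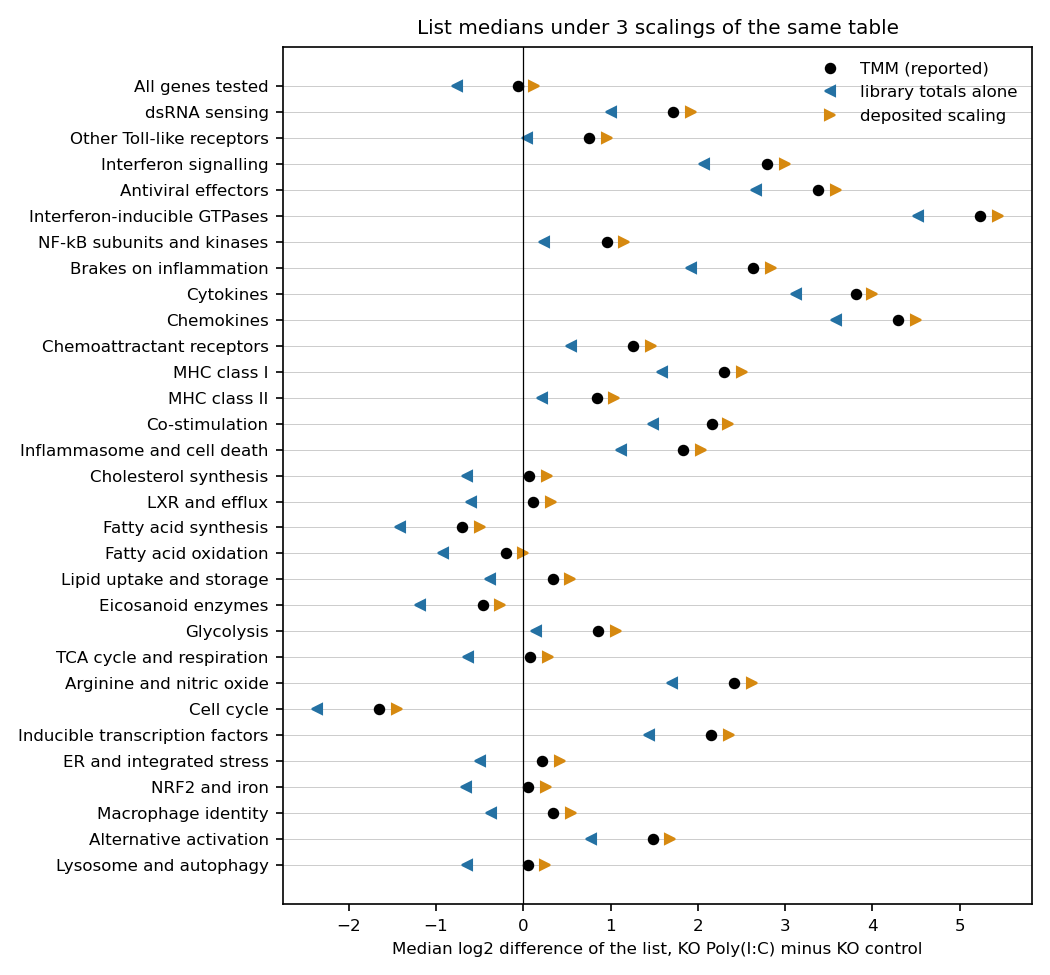
Median log2 difference of each list, KO Poly(I:C) minus KO control, with TMM scaling (black circles), library totals alone (blue, pointing left) and the deposited scaling (orange, pointing right). Immune lists stay right of zero and the cell cycle list left of zero under all 3, while medians of several metabolic lists change side with totals alone.

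The 15 protein-coding genes that fell most were Engase, Zfp395, Ankle1, Sesn1, Lpin1, Bmf, Fam214a, Cnr2, Cmah, Hpgd, Atrip, Rnf150, Pald1, Lpar5 and Plekhg3, with log2 differences from −5.24 to −3.98. Sesn1 encodes sestrin 1, a stress protein that restrains the growth kinase mTORC1, and was at 4.70 and 6.08 CPM with Poly(I:C) and 163 and 175 CPM in control medium (SE 0.14, limma adjusted p = 1.83e-09). Bmf, a death-promoting BCL2 relative, was at 0.705 and 0.522 CPM in KO Poly(I:C) and 17.3 and 15.4 CPM in KO control. Several act on lipids or lipid signals: Lpin1 encodes a phosphatidate phosphatase, Cnr2 a cannabinoid receptor, and Lpar5 a receptor for lysophosphatidic acid. Lpin1 was at 0.353 and 0.302 CPM in KO Poly(I:C), against 10.9 and 11.5 CPM in KO control, Cnr2 at 0.499 and 0.880 CPM with Poly(I:C) and 15.6 and 15.2 CPM in control medium, and Lpar5 at 0.264 and 0.467 CPM in KO Poly(I:C) and 7.03 and 7.79 CPM in KO control. Engase and Cmah encode enzymes that act on glycans, and Cmah, which makes the sialic acid Neu5Gc, was at 0.470 and 0.357 CPM in KO Poly(I:C), against 10.3 and 9.63 CPM in KO control. Zfp395, a zinc finger protein, was at 0.529 and 0.357 CPM with Poly(I:C) and 21.0 and 18.0 CPM in control medium, and Rnf150, a RING finger protein, at 2.59 and 3.02 CPM in KO Poly(I:C) and 47.7 and 55.2 CPM in KO control. The remaining genes include Atrip, the partner of the DNA damage kinase ATR, the endonuclease Ankle1 and the guanine nucleotide exchange factor Plekhg3. For none of the genes given here with values did the groups overlap, which follows from their choice by the size of the fall.

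The Poly(I:C) difference of KO cells was set against the difference of WT cells between control medium and no treatment. These 2 responses share no library, but they differ in genotype label, stimulus and baseline, so only the measured differences are compared. Of the genes that rose with Poly(I:C) in KO cells, 80.0% also rose in WT cells in control medium, and these were 78.6% of the WT rises (there 33.1% of all genes tested rose and 32.8% fell, 65.8% in all). Of the genes that fell in KO cells 72.8% also fell in WT cells, which were 81.9% of the WT falls. The log2 differences correlated at r = 0.880 across 13171 genes, which are not independent replicates. A test of the difference of the 2 responses called 2937 genes (22.3%), 1386 higher (10.5%) and 1551 lower (11.8%) for Poly(I:C) in KO cells. The split was 885 higher and 2802 lower with library totals alone, and 1457 and 1151 with the deposited scaling. Leaving out WT control replicate 1, KO control replicate 1 or KO control replicate 2 left 1774, 1852 and 1704 calls.

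The response of Ifnb1 was larger with Poly(I:C). It was at 33.2 and 29.3 CPM in KO Poly(I:C) and 0.0660 and 0 CPM in KO control, and at 0.923 and 1.46 CPM in WT control and 0 and 0.0993 CPM in untreated WT cells. The difference of responses was 4.76 (SE 0.55, limma adjusted p = 0.000529). A higher response means a larger rise or a smaller fall than in WT cells. Other genes whose response was higher for Poly(I:C) were Asb4 (log2 3.46), Ccr1 (log2 3.17), the actin regulator Eps8 (log2 3.13), the secreted nuclease Dnase1l3 (log2 2.89), Angptl4 (log2 2.78), Hopx (log2 2.68) and Ccnd2 (log2 2.68). For some, KO control medium itself stood apart from untreated KO cells. Asb4, an ankyrin repeat protein, was at 0.646 and 0.797 CPM in KO Poly(I:C), 0.726 and 0.941 CPM in KO control and 8.24 and 7.56 CPM in untreated KO cells. Angptl4, a secreted inhibitor of lipoprotein lipase, was at 0.0881 and 0 CPM in KO Poly(I:C), 1.32 and 1.33 CPM in KO control and 19.9 and 23.3 CPM in untreated KO cells. Ccr1, a chemokine receptor, was at 23.7 and 22.0 CPM in KO Poly(I:C), against 6.93 and 7.59 CPM in KO control, and at 15.2 and 20.7 CPM in WT control and 51.8 and 51.4 CPM in untreated WT cells, so that it rose in KO cells and fell in WT cells (WT log2 −1.53, limma adjusted p = 3.58e-06). Eps8 fell in both, by less in KO cells (KO log2 −1.10, WT log2 −4.24): it was at 1.91 and 2.31 CPM with Poly(I:C) and 4.56 and 4.70 CPM in control medium, and its KO call was lost without KO Poly(I:C) replicate 1 (log2 −0.97). The response of Il27 was also higher for Poly(I:C) (log2 2.36), and that of Il12b lower (log2 −1.91).

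Sterol synthesis genes were often on the lower side. Of 23 genes 17 had a lower response to Poly(I:C) in KO cells than to control medium in WT cells and 0 a higher one, under TMM and the deposited scaling alike (18 and 0 with totals), where 11.8% of all genes were lower. The baseline was control medium for KO cells and no treatment for WT cells, so the counts do not compare responses to Poly(I:C) between genotypes. Sqle, which encodes squalene epoxidase, was at 17.9 and 14.2 CPM in KO Poly(I:C) and 23.4 and 21.3 CPM in KO control, and at 37.2 and 33.2 CPM in WT control and 15.3 and 11.1 CPM in untreated WT cells (difference −1.91, limma adjusted p = 0.000668). Among the genes with the largest lower responses were those of the receptor phosphatase Ptpru (log2 −3.68), the monoamine transporter Slc18a1 (log2 −3.02), Mturn (log2 −2.64), Gpr84 (log2 −2.61), Cx3cr1 (log2 −2.60), the RNA-binding Nanos1 (log2 −2.50) and the calcium pump Atp2b4 (log2 −2.48). Gpr84 rose in both responses and was at 480.5 and 442 CPM in KO Poly(I:C) and 519.8 and 474 CPM in WT control, against 40.4 and 41.7 CPM in KO control and 9.58 and 5.33 CPM in untreated WT cells. Among immune lists, 11 of 20 cell death genes, 7 of 13 class I genes and 8 of 20 double-stranded RNA sensing genes had a higher response to Poly(I:C), against 10.5% of all genes, while 2, 0 and 0 had a lower one. Interferon signalling had 6 higher and 1 lower of 15, the inducible GTPases 4 and 0 of 16, class II genes 2 and 0 of 8, co-stimulation 4 and 1 of 10, cytokines 8 and 4 of 22, and chemoattractant receptors 5 and 2 of 14. Chemokines had 6 higher and 2 lower of 21 (5 and 5 with totals). The other immune lists did not lean higher: the brakes on inflammation had 3 higher and 3 lower of 16 (2 and 6 with totals), the other Toll-like receptors and their adaptors 4 and 5 of 19 (3 and 9 with totals), and the NF-kB subunits and kinases 0 and 2 of 10 (0 and 6 with totals). Of antiviral effectors 11 of 42 were higher and 0 lower, with 7 higher under scaling by totals and 16 under the deposited scaling. A lean was not particular to these lists. Macrophage identity genes had 10 higher and 2 lower of 20, stress genes 8 and 1 of 17, and alternative activation genes 6 and 2 of 13. Fatty acid oxidation genes had 8 and 1 of 23, and NRF2 and iron genes 0 and 7 of 15.

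**Figure D5:**
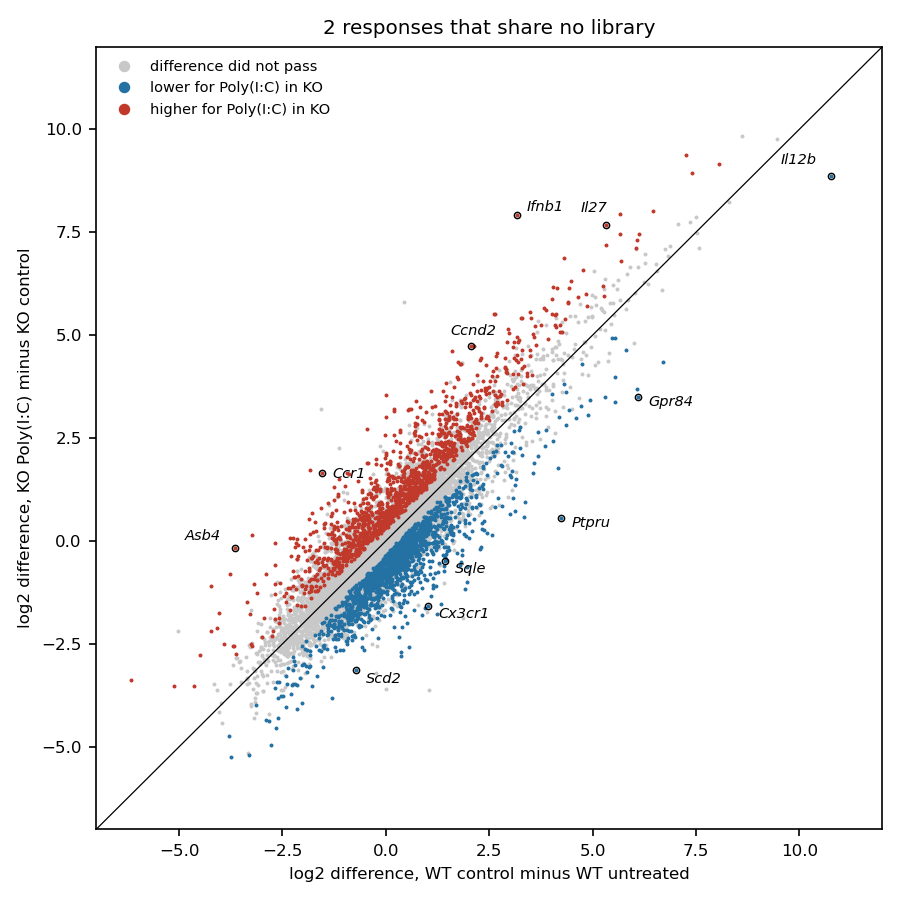
For each gene tested, the log2 difference of WT control minus untreated WT cells (x axis) and of KO Poly(I:C) minus KO control (y axis), with the line of equal difference. Red and blue genes had a higher or lower response to Poly(I:C) in KO cells by limma on the difference at an adjusted p under 0.05. Ifnb1 lies far above the line, and Gpr84 and Sqle lie below it.

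Markers of other cells that a marrow culture can hold were measured beside these results. Neutrophil genes rose in 10 of 12 tested cases (8 up and 1 down with scaling by totals), with a summed level of 979.9 and 975 CPM in KO Poly(I:C) and 395 and 404 CPM in KO control. The receptor gene Csf3r was at 596 and 584 CPM in KO Poly(I:C), against 162 and 182 CPM in KO control. S100a8 was at 43.0 and 42.4 CPM with Poly(I:C) and 7.73 and 4.87 CPM in control medium, S100a9 rose by a log2 difference of 2.56, and Elane was at 2.20 and 1.98 CPM in KO Poly(I:C) and 0.330 and 0.130 CPM in KO control. The defining Ly6g had at most 8 units in any of the 4 libraries. Stromal and endothelial genes rose in 6 of 13 cases: Vcam1 was at 24.2 and 34.6 CPM in KO Poly(I:C), against 0.0991 and 0.0973 CPM in KO control, Kdr at 37.3 and 36.8 CPM with Poly(I:C) and 1.29 and 1.52 CPM in control medium and Cdh5 at 5.29 and 6.16 CPM in KO Poly(I:C) and 0.660 and 0.649 CPM in KO control, while the collagens Col1a1, Col1a2 and Col3a1 lay between 0.594 and 2.50 CPM and did not pass (Col1a2 was called lower with totals, log2 −1.15). Dendritic cell genes stood at 2 up (Ccr7 and Xcr1, both below 1 CPM) and 1 down (Batf3, −0.97) of 6, and 2 up and 3 down with scaling by totals. In the mast cell list Hdc, the histamine-forming enzyme that activated macrophages also express, was at 54.3 and 50.3 CPM in KO Poly(I:C), against 0.429 and 0.487 CPM in KO control. Kit and Gata2, below a mean of 1 CPM in KO control, rose by a log2 difference of 2.43 and 1.498. With a pseudocount of 1 these values were 0.88 and 0.45. Fcer1a, Cpa3, Mcpt8, Tpsb2 and Ms4a2 were at 0. Of B, T and NK cell genes only Cd79b and Cd4 were tested, and Cd79b was at 8.61 and 7.48 CPM with Poly(I:C) and 42.5 and 36.8 CPM in control medium, and fell, while Cd3e, Cd3g, Cd8a and Ncr1 were at 0 and the others had at most 7 units in any of the 4 libraries. Among red cell and platelet genes Pf4, Ppbp and Itga2b rose by a log2 difference of 0.80, 0.99 and 1.16, calls that were lost with scaling by totals. The haemoglobin genes were too low to be tested: Hba-a2 had 8 and 8 deposited units in KO Poly(I:C) and 0 and 0 in KO control, and Hbb-bt 4 and 6 in KO Poly(I:C) and 2 and 1 in KO control. Hbb-bs had 1 and 0 units in KO Poly(I:C) and 2 and 0 in KO control, and Hba-a1 was at 0 in all 4 libraries. The call of Ppbp was lost without any 1 of the 4 libraries (0.85 to 1.12), and that of Itga2b without any but KO Poly(I:C) replicate 1 (0.95 to 1.21). The part of such cells in the results above was not tested.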

How the data were processed

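RNA was sequenced from 10 libraries, grouped by their labels. Per the submitters' processing notes, the tools include DESeq2, RSEM (1.2.12), STAR (2.4.0d) and Trim Galore (0.2.8), in roles that are not stated. The authors' build was not given in the sources used here. Their main table, as deposited, holds a signal per gene: whole numbers that each lie on a library-specific grid, so scaled and rounded counts, for 45318 identifiers. No count model was fitted to them. The second deposited table holds rlog values on a log2 scale for 19209 identifiers. Symbols and GRCm38 coordinates come from the reference annotation, which matched 44671 identifiers.

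The signal was scaled by TMM (30% of M values and 5% of A values trimmed), computed in R (4.3.3), and expressed as CPM. Genes that reached 10 units in 2 or more libraries (13171 of 20687 above 0) were fitted as log2(CPM + 0.1) with limma (3.58.1), with trend, over all 10 libraries and 5 groups, giving 5 residual degrees of freedom. p-values were adjusted by Benjamini-Hochberg over all genes tested, and the call threshold was 0.05. The script was tested on simulated data. Replicates correlated at 0.994 within KO Poly(I:C) and 0.993 within KO control, across genes.

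Genes named are the 15 protein-coding genes of largest difference in each direction with a mean of at least 5 CPM in the higher group, 8 in each direction for the difference of responses, Tlr4, and members of 36 gene lists, at least the 3 called members of largest difference in each, except that some genes the rule names are not reported here. The comparison and the lists were chosen with earlier results of these data known. Promoter sequences are RefSeq's (GRCm38.p6). The forms of the motifs were chosen after the data were seen, and each is a base shorter than a form searched first. Alternatives were other scalings, a pseudocount of 1, no filter or a minimum of 50, a replicate term, the 4 libraries alone, the rlog table, and each library left out in turn. The labels' replicate numbers were not taken as pairs.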

Additional observations from a re-analysis of the deposited data

How the results depend on the processing

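Between KO Poly(I:C) and KO control, 9139 genes were called, 10963 with library totals alone, 8963 with the deposited scaling, and 8239 to 9492 under the pseudocount, filter, replicate block, 4-library and rlog alternatives. The split moved with scaling: with totals alone 2081 rose and 8882 fell. With 1 library left out, 7999 to 8244 genes were called, 3754 to 3849 of them up and 4162 to 4475 down. In the difference of responses, where 2937 genes were called, totals alone gave 885 higher and 2802 lower. With 1 library left out, 1704 to 2761 were called, 832 to 1424 higher and 804 to 1347 lower, on the assumption that a lone library varies like the other groups. The replicate block gave 9492 and 3741 calls and changed no call of a named gene between KO Poly(I:C) and KO control. Single genes were not followed under the alternatives in the difference of responses. With 2 libraries a group, the deviations of same-numbered libraries correlated across genes at 0.171 between KO Poly(I:C) and KO control. Between WT control and untreated WT, also compared in the difference of responses, the value was 0.315. The other pairs of groups within a genotype label gave 0.215 and 0.306, and pairs across labels 0.0128 to 0.111. What the numbers stand for is not stated, and they were not taken as pairs. Of 261 genes followed, 231 kept their direction and side of the threshold under every alternative run, and 9 turned with totals alone: Tgfb1 (−0.44), Ptpn6 (−0.48), Adgre1 (−0.66), Mmp8 (−0.44), Mmp9 (−0.087), Ripk3 (−0.14), Cpt1a (−0.24), Chuk (−0.30) and Ikbkb (−0.31). Irf3, Cd36, Ltc4s, Atp2b4, Col1a2, Asb4 and Lyz2 did not pass with TMM but were called lower with totals alone. The deposited values carry no record of total RNA per cell, and small differences of either sign depend on the scaling. Depth limits genes below 1 CPM, where log2 differences depend on the pseudocount.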

Other observations

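Long non-coding and pseudogene transcripts lay outside the gene lists, and the ones given here were chosen after their values were seen. Mir155hg, the host transcript of the microRNA miR-155, a known regulator of macrophage activation, was at 53.0 and 50.6 CPM with Poly(I:C) and 0.198 and 0.389 CPM in control medium (log2 7.09, SE 0.26, limma adjusted p = 7.36e-09). Both Poly(I:C) libraries lay far above both control libraries. AW112010, an interferon-induced transcript annotated as non-coding, was at 849 and 931 CPM in KO Poly(I:C) and 13.2 and 15.4 CPM in KO control (log2 5.95, limma adjusted p = 9.23e-10). Ptgs2os2, annotated on the opposite strand near Ptgs2, was at 6.05 and 3.60 CPM in KO Poly(I:C), against 0.396 and 0.227 CPM in KO control (log2 3.57). The library protocol is stranded, but whether counting used the strand was not stated by the sources used here, so reads of Ptgs2 and of its antisense neighbour may not be separated. On the lower side, Trp53cor1, known as lincRNA-p21, was at 1.06 and 1.92 CPM with Poly(I:C) and 5.05 and 5.51 CPM in control medium (log2 −1.81), and Pvt1, a neighbour of the Myc gene, at 2.70 and 2.31 CPM in KO Poly(I:C) and 6.57 and 8.40 CPM in KO control (log2 −1.54). For each of these 5 transcripts the libraries of the groups did not overlap, which follows from their choice by value. The direction was the same with library totals alone.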
